A study of Homo sapiens with 6 samples.

Results

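Laminin chain genes were compared between H358 cells that expressed TwistER and H358 cells that expressed green fluorescent protein (GFP). The family members considered were LAMA1, LAMA2, LAMA3, LAMA4, LAMA5, LAMB1, LAMB2, LAMB3 and LAMC1, and a member was measured where a probe set of the array was annotated with its symbol alone. That gave 8 of the 9 chains among 18417 genes in all, each with 1 probe set, and the expression of LAMA3 was not analysed here. H358 is an established line of non-small cell lung cancer cells. Cells of 1 line carried GFP (3 arrays) and cells of the other carried TwistER (3 arrays), and both lines stably expressed their insert and received 100 nM 4-hydroxytamoxifen (4OHT) for 12 days before RNA was taken. TwistER constructs join the Twist transcription factor to a hormone-responsive estrogen receptor domain, which makes the factor switchable by 4OHT. The submitters' titles place the GFP cells before, and the TwistER cells after, epithelial-mesenchymal transition. Cells with TwistER but without 4OHT were not among the samples, so the activation of TwistER and other differences between the lines cannot be told apart.

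Laminins are secreted trimers of an alpha, a beta and a gamma chain, and they form the sheet of the basement membrane that lies under epithelia. Each trimer is named by the numbers of its chains. Laminin 332, which contains the products of LAMA3 and LAMB3, anchors epithelial cells through the integrin of ITGA6 and ITGB4 in hemidesmosomes. Laminins 511 and 521, which share the chain of LAMA5, are widespread in epithelial basement membranes, while the LAMA4 and LAMA2 chains are known from vessels and muscle, and the LAMA1 chain from the embryo. LAMB1 or LAMB2 and LAMC1 supply the beta and gamma chains of these other trimers.

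The first comparison asked which chains differed between the lines. Among the beta chains, LAMB3 was 2.88-fold lower in TwistER cells and LAMB1 was 1.57-fold higher, while LAMB2 did not pass the test given next. Of the 8 measured chains, 1 rose, 1 fell and 6 did not pass the test (limma, Benjamini-Hochberg adjusted p under 0.05 over all 18417 genes). Of all genes tested 8.83% passed, 4.72% upward and 4.11% downward, and 2 of 8 chains are too few to set against that share. The median log2 difference, TwistER minus GFP, was 0.13 over the chains and 0.01 over all genes. TwistER and GFP arrays did not overlap for 3 of the 8 chains, LAMB3, LAMB1 and LAMA5, and for 28.4% of all genes.

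The promoters of these 3 genes are shown because their groups did not overlap and because Twist, Snail and ZEB factors bind DNA at E-boxes, the letters CANNTG. Each line gives the 250 bases before the RefSeq transcription start (build GRCh38.p14), 5′ to 3′ on the gene's strand, with E-boxes in capitals. LAMB3 lies at chr1:209652426-209652675 (minus strand), LAMA5 at chr20:62367313-62367562 (minus strand) and LAMB1 at chr7:108003162-108003411 (minus strand).
LAMB3: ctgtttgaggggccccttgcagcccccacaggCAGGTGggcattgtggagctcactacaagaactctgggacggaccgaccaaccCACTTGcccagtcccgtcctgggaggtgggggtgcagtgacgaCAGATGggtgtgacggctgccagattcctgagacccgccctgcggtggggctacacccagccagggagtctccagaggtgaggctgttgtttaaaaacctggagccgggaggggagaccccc
LAMA5: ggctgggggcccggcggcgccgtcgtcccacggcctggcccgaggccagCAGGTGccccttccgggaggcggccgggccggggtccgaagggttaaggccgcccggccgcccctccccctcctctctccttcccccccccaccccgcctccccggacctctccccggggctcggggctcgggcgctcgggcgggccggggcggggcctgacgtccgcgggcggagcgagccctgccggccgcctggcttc
LAMB1: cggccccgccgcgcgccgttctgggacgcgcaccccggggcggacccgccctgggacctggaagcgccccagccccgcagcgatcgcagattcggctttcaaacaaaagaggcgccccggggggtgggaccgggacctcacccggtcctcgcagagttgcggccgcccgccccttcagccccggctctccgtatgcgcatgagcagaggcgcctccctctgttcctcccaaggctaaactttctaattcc
The LAMB3 window held 3 E-boxes. The farthest, CAGGTG, began 218 bases before the start. The next was CACTTG at 165 bases, and CAGATG lay nearest, at 122 bases. RefSeq lists 3 starts for LAMB3, of which the first in the table is shown, and each of the other windows held 1 E-box. The window of the second start overlaps the one shown and holds its CAGATG again. The LAMA5 window held 1 E-box, CAGGTG, which began 201 bases before the start. No E-box was found in the windows of LAMB1, LAMA2, LAMA4, LAMB2 and LAMC1, and LAMA1 was not matched in the table. The window of LAMA3, whose expression was not analysed, held 2 E-boxes, CATGTG at 120 bases and CACCTG at 73 bases. Among all 35116 windows of this length, searched in the same way on both strands, 61.8% held CANNTG. The Snail and ZEB form CACCTG, which reads CAGGTG on the other strand, stood in 17.5% of them. These matches describe letters in a window, and binding was not measured.

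LAMB3 encodes the beta chain of laminin 332. Its log2 expression was 5.90, 6.89 and 6.91 in GFP replicates 1 to 3 and 4.93, 4.76 and 5.43 in TwistER replicates 1 to 3. Every TwistER array was below every GFP array, and GFP replicate 1 stood nearest to the TwistER arrays. The group means were 6.57 ± 0.58 and 5.04 ± 0.34 (SD, n = 3). The difference was -1.52 ± 0.28 (SE) with a limma adjusted p of 0.0119. This was the largest difference among the 8 chains, and 1.02% of all genes had one of at least this size in either direction. LAMB3 also varied most within groups, with a pooled SD of 0.47 that lay at percentile 98.3 of all genes. Without GFP replicate 1 the difference was -1.86 (limma adjusted p = 0.000906). The call was lost without TwistER replicate 1 (limma adjusted p = 0.0574) or TwistER replicate 2 (0.0622).

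**Figure D1:**
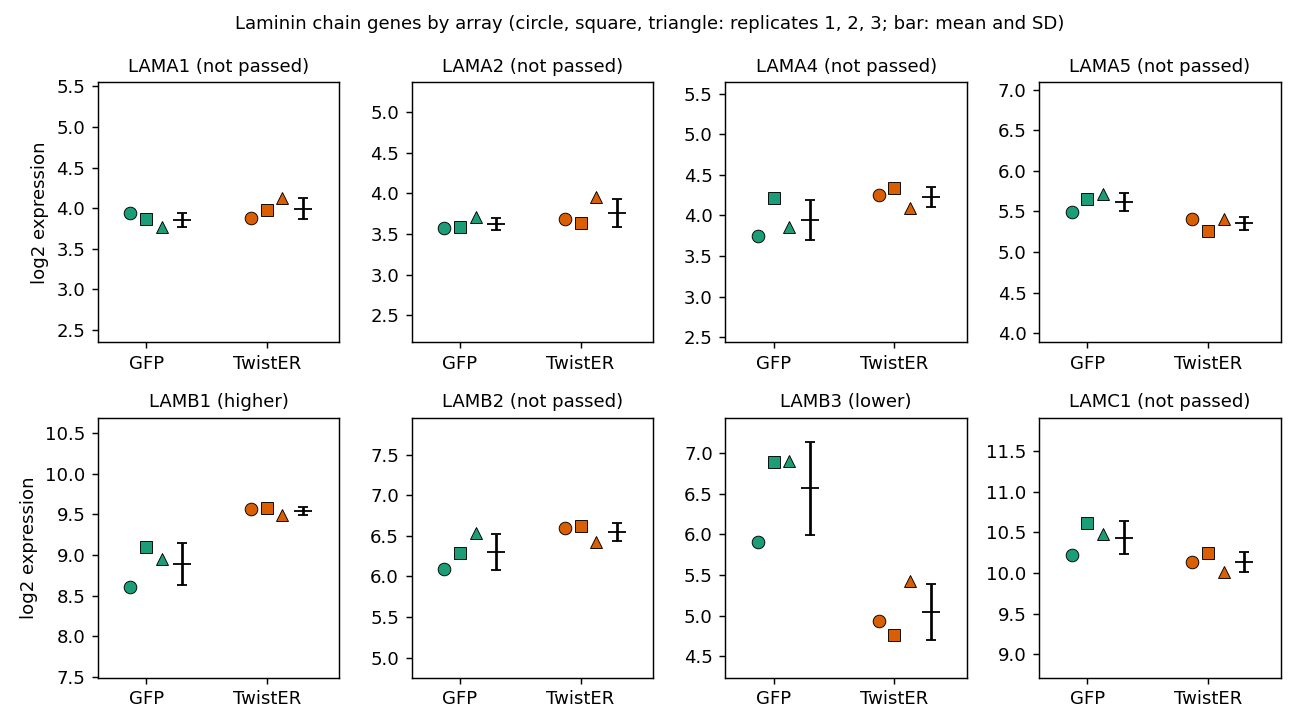
Log2 expression of the 8 measured laminin chains, with 1 point per array (GFP and TwistER, 3 arrays each) and the group mean with its SD beside the points. Each panel spans the same range of log2 units. The LAMB3 points of the TwistER arrays (4.76 to 5.43) sit below all GFP points, and the LAMB1 points (9.49 to 9.57) sit above all GFP points.

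LAMB1 encodes the beta chain of laminins 111, 211, 411 and 511. Its log2 expression was 8.60, 9.10 and 8.95 in GFP replicates 1 to 3 and 9.56, 9.57 and 9.49 in TwistER replicates 1 to 3. All TwistER arrays were above all GFP arrays and close to one another. The means were 8.89 ± 0.26 in GFP and 9.54 ± 0.05 in TwistER (SD, n = 3), a rise of 0.66 ± 0.14 (SE, limma adjusted p = 0.0239). The size of this change was reached or passed by 6.66% of all genes. The LAMB1 call was lost without GFP replicate 3 or without any TwistER array, with a highest limma adjusted p of 0.102. The difference itself stayed between 0.51 and 0.76 when each of the 6 arrays was left out in turn.

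LAMB2, whose product takes the place of the LAMB1 chain in laminins 221, 421 and 521, read 6.09, 6.29 and 6.53 in GFP and 6.59, 6.62 and 6.42 in TwistER. The groups overlapped, since GFP replicate 3 was above TwistER replicate 3. The difference of 0.24 ± 0.14 (SE) did not pass (limma adjusted p = 0.377), and its 95% interval ran from -0.07 to 0.56.

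LAMC1 encodes the gamma chain that the trimers other than laminin 332 named here have in common. It read 10.22, 10.61 and 10.48 in GFP and 10.14, 10.25 and 10.01 in TwistER. TwistER replicate 2 was above GFP replicate 1, and the other 8 of the 9 pairings of a TwistER with a GFP array had the TwistER array lower. The difference of -0.30 ± 0.13 (SE) did not pass (limma adjusted p = 0.241, 95% interval -0.61 to 0.00). LAMC1 fell by 0.41 on the log2 scale when GFP replicate 1 was left out (limma adjusted p = 0.0426). Among those 5 arrays 1 chain rose and 2 fell, and 15.1% of all genes passed.

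The alpha chain largely sets which receptors a laminin binds, and none of the 4 measured alpha chains passed the test in limma, with 1, LAMA5, at an unadjusted p under 0.05. LAMA5 read 5.50, 5.65 and 5.71 in GFP and 5.40, 5.26 and 5.40 in TwistER. Every TwistER array was lower, by a small amount, and the difference of -0.26 ± 0.11 (SE) had a limma adjusted p of 0.214 (95% interval -0.52 to -0.01). LAMA4 read 3.74, 4.21 and 3.86 in GFP and 4.26, 4.33 and 4.09 in TwistER. Its groups overlapped through GFP replicate 2, and the difference of 0.29 ± 0.15 (SE) had a limma adjusted p of 0.313 (95% interval -0.05 to 0.62).

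LAMA1 and LAMA2 were dim, and neither passed the test. LAMA1 read 3.94, 3.87 and 3.77 in GFP and 3.87, 3.98 and 4.13 in TwistER, a difference of 0.13 ± 0.11 (SE, limma adjusted p = 0.584, 95% interval -0.13 to 0.40). LAMA2 read 3.58, 3.59 and 3.71 in GFP and 3.69, 3.63 and 3.96 in TwistER, also a difference of 0.13 ± 0.12 (SE, limma adjusted p = 0.615, 95% interval -0.15 to 0.41). The groups of both genes overlapped. LAMA1, LAMA2 and LAMA4 had mean values at percentiles 20.5, 17.3 and 22.9 of all genes, within the dimmest 25% of genes, a range in which RMA values understate differences. LAMB1 and LAMC1 were at percentiles 92.5 and 97.5, and LAMA5, LAMB3 and LAMB2 at 50.6, 56.5 and 66.0. Probe sets differ in how brightly they report a transcript, so these percentiles do not rank the amounts of the chains.

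**Figure D2:**
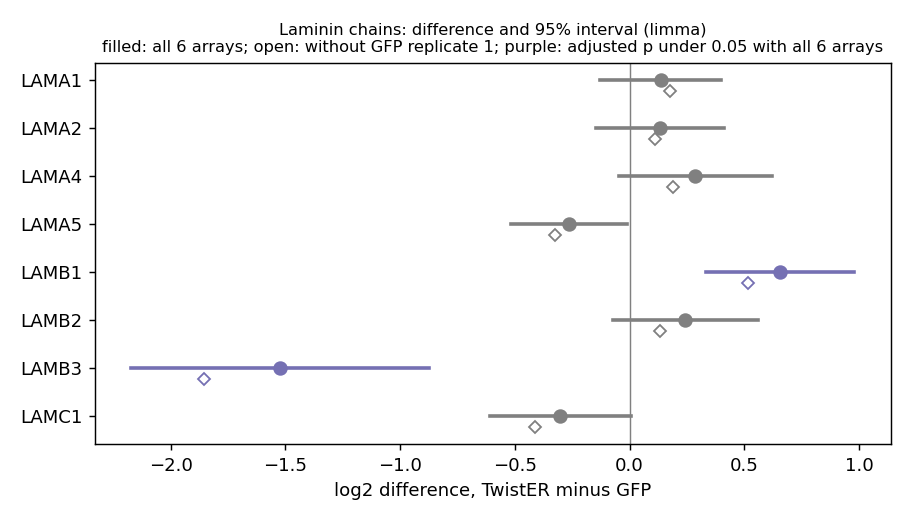
Log2 difference, TwistER minus GFP, of each measured laminin chain (filled points) with limma's 95% interval (lines), and the difference without GFP replicate 1 (open diamonds). LAMB3 (-1.52) and LAMB1 (0.66) passed an adjusted p of 0.05 with all 6 arrays, and the interval of LAMC1 reached 0.00.

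Over all genes, GFP replicate 1 was the least like its group (r = 0.982 with each of them, against r = 0.996 between GFP replicates 2 and 3), and the chains shared in this. It was lower than the mean of GFP replicates 2 and 3 in 7 of the 8 chains, by 0.996 in LAMB3, 0.42 in LAMB1, 0.33 in LAMC1 and 0.32 in LAMB2 on the log2 scale, and higher by 0.12 in LAMA1. The median gap was -0.31 over the chains and -0.01 over all genes. Its part in the results was not tested beyond leaving the array out.

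The second comparison asked whether chains that can assemble together changed unequally. The log2 ratio of a pair of chains was taken within each array and set against its mean in the GFP arrays. A shift that both chains of a pair share in an array drops out of this ratio. In all 5 pairs tested the TwistER and GFP arrays did not overlap, and the exact permutation p was 0.1 (2-sided, also 0.1 adjusted over the 5 pairs), the smallest that 3 arrays against 3 allow. The pairs share chains and are not independent of each other. Each pair holds LAMB3, LAMB1 or LAMA5, whose groups were already apart alone. LAMB3 and LAMB1 were apart in opposite directions, so the separation of their ratio followed from the first comparison. The share of all gene pairs without overlap was not computed.

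The pair with the smallest spread was LAMB1 over LAMC1. Relative to the GFP mean, the log2 ratio was -0.06, 0.04 and 0.02 in GFP replicates 1 to 3 and 0.97, 0.87 and 1.02 in TwistER replicates 1 to 3. The ratio was thus 0.96 ± 0.05 (SE) higher, or 1.94-fold, and between 0.923 and 0.999 when each array was left out in turn. LAMB3 over LAMB1 gave -0.38, 0.10 and 0.28 in GFP and -2.31, -2.49 and -1.74 in TwistER. This beta chain ratio was 4.53-fold lower (-2.18 ± 0.30), the largest shift among the pairs. LAMB3 over LAMC1 shifted by -1.22 ± 0.35.

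LAMB1 over LAMB2, the alternative beta chains of the trimers with LAMC1, shifted by 0.41 ± 0.12, with GFP arrays from -0.16 to 0.23 and TwistER arrays from 0.37 to 0.48. LAMA4 over LAMA5 shifted by 0.55 ± 0.17, with GFP arrays from -0.17 to 0.25 and TwistER arrays from 0.37 to 0.75. Neither of these alpha chains passed the test alone. A ratio within an array shows unequal change and does not say which chain changed.

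**Figure D3:**
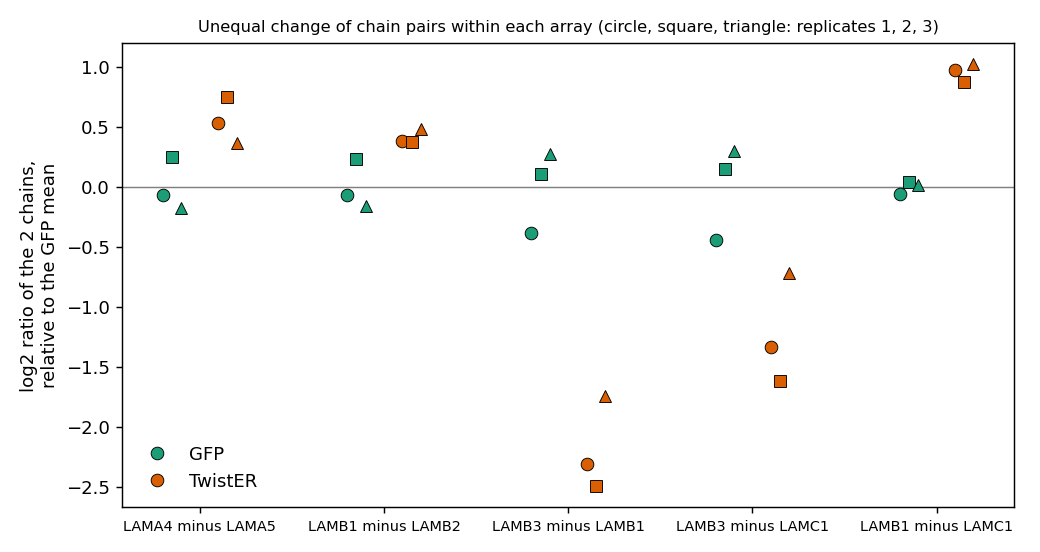
Log2 ratio of paired laminin chains within each array, relative to the mean of the GFP arrays, for GFP (3 arrays) and TwistER (3 arrays). In each of the 5 pairs the groups are apart, and the LAMB1 over LAMC1 points lie closest together within groups (-0.06 to 0.04 in GFP, 0.87 to 1.02 in TwistER).

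The genes whose profile over the 6 arrays was nearest to that of LAMB3, by Euclidean distance of log2 values centred per gene, were ARHGEF3, a guanine nucleotide exchange factor, MAPK13, a p38-type kinase, and CLDN7, a tight junction claudin. Their distances were 0.35, 0.38 and 0.38 log2 units, and their differences were -1.53, -1.37 and -1.65. ARHGEF3 read 7.02, 7.69 and 7.70 in GFP and 5.83, 5.83 and 6.17 in TwistER, with the same low GFP replicate 1 as LAMB3. TwistER replicate 3 was the highest TwistER array in LAMB3 and in each of these genes. With 6 arrays in 2 groups, such likeness rests on the group difference and on single arrays such as these.

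Genes that bind, anchor, modify or accompany laminins were taken from 6 lists. Of 56 measured genes out of 65 listed, 3 rose, 3 fell and 50 did not pass (limma, same adjustment), with a median difference of 0.01. The 6 called genes are 10.7% of those measured, near the 8.83% of all genes. Without GFP replicate 1, 4 rose and 7 fell, or 19.6%, where 15.1% of all genes passed. The counts of the single lists are small and are given as descriptions.

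Of 9 measured laminin receptors, 1 rose and 1 fell, with a median difference of -0.19. ITGB4, whose product joins that of ITGA6 to bind laminin 332 in hemidesmosomes, read 6.21, 7.07 and 6.87 in GFP and 5.57, 5.47 and 5.64 in TwistER. All TwistER arrays were lower, and ITGB4 fell 2.23-fold (-1.16 ± 0.21 SE, limma adjusted p = 0.00951), a call lost without 1 of the 6 arrays, TwistER replicate 2 (adjusted p = 0.0525). Its partner ITGA6 read 11.11, 11.23 and 11.12 in GFP and 10.99, 10.91 and 10.76 in TwistER. That difference of -0.27 ± 0.11 did not pass (limma adjusted p = 0.203), although the groups did not overlap.

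SDC2, a heparan sulfate proteoglycan of the cell surface, read 7.73, 7.68 and 7.61 in GFP and 9.13, 9.28 and 9.10 in TwistER. It rose 2.83-fold (1.50 ± 0.11 SE), and the highest limma adjusted p without any 1 array was 0.00122. ITGA3, the alpha subunit of another laminin receptor, had a difference of -0.24 ± 0.23 (limma adjusted p = 0.636), which became -0.52 and passed with GFP replicate 1 left out (limma adjusted p = 0.0291). ITGA7, a laminin receptor subunit known from muscle, had a difference of 0.33 ± 0.13 with groups that did not overlap (limma adjusted p = 0.171), and of 0.43 without GFP replicate 1, which passed (limma adjusted p = 0.0356). ITGB1, the beta subunit that pairs with ITGA3, had a difference of -0.06 ± 0.11 (limma adjusted p = 0.840, 95% interval -0.31 to 0.20).

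The list of hemidesmosome partners was drawn widely and also holds the integrin activator FERMT1. Of its 6 measured genes, 1 rose and 2 fell, with a median difference of -0.19. DST, the gene of the plakin dystonin, of which an epithelial isoform is a hemidesmosome protein, read 9.61, 9.51 and 9.47 in GFP and 10.28, 10.28 and 10.15 in TwistER, and rose 1.63-fold (0.71 ± 0.11 SE, limma adjusted p = 0.00394). The probe set does not tell its isoforms apart here. FERMT1, the epithelial kindlin that activates integrins, fell 1.52-fold (-0.60 ± 0.11, limma adjusted p = 0.00921). PLEC, the linker plectin, fell 1.35-fold (-0.43 ± 0.11, limma adjusted p = 0.0464), a call that was kept without GFP replicate 1 and lost without each other array, with a highest limma adjusted p of 0.173. The PLEC call was also lost with the trended robust variance (limma adjusted p = 0.0536) and with the replicate block (0.0629).

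Among the other components of the basement membrane, the call of FREM2 depended on the processing. Of 20 measured genes 0 rose and 0 fell in limma (2, FREM2 and NID2, had an unadjusted p under 0.05), with a median difference of 0.09, and 3 had groups that did not overlap. These were FREM2, NID2 and HSPG2, named after their values were seen. The groups did not overlap for 28.4% of all genes, so 3 of 20 is not a high share. FREM2, a protein of the epithelial basement membrane, had a difference of -0.76 ± 0.20 (limma adjusted p = 0.0545), and with all 6 arrays it passed under median centring (-0.78, limma adjusted p = 0.0296), cyclic loess (-0.79, 0.0355), the replicate block (0.0386) and the filter on the dimmest 25% of genes (0.0467). NID2, a nidogen that links laminin to collagen IV, had a difference of 0.37 ± 0.12 (limma adjusted p = 0.106), and its relative NID1 one of -0.23 ± 0.19 (limma adjusted p = 0.577). HSPG2, perlecan, had a difference of 0.16 ± 0.11 (limma adjusted p = 0.505). The collagen IV genes COL4A1 and COL4A2 differed by 0.02 ± 0.10 and 0.00 ± 0.11. Without GFP replicate 1, FREM2 (-0.99) and the proteoglycan AGRN (-0.49) passed, with limma adjusted p of 0.00200 and 0.0212.

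Among 8 proteases that can process laminins, 1 rose and 0 fell. TLL1, a tolloid-like metalloprotease related to BMP1, read 4.39, 4.12 and 4.20 in GFP and 5.08, 5.20 and 4.82 in TwistER, and rose 1.74-fold (0.80 ± 0.14 SE, limma adjusted p = 0.00808). BMP1 itself had a difference of -0.09 ± 0.16 (limma adjusted p = 0.822). Of 11 measured genes for the sugar chains by which dystroglycan holds laminin, 0 rose and 0 fell in limma, with a median of -0.10 and 1, the xylosyltransferase RXYLT1, at an unadjusted p under 0.05. The further laminin chains LAMB4 and LAMC3 differed by 0.01 ± 0.13 and 0.07 ± 0.17, neither past the test (limma adjusted p = 0.967 and 0.873).

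**Figure D4:**
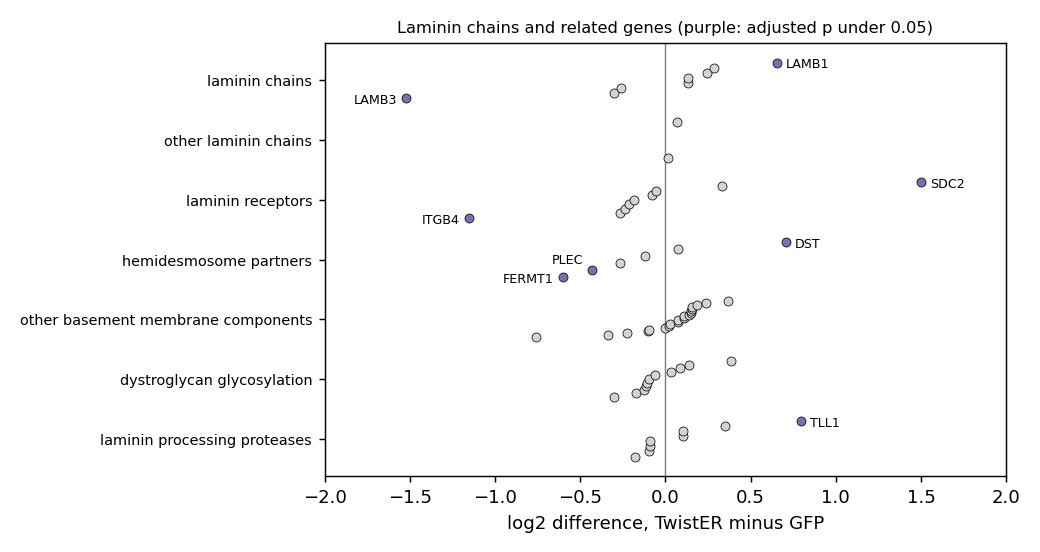
Log2 difference, TwistER minus GFP, of the measured laminin chains and of the genes in 6 related lists, with 1 point per gene and genes at an adjusted p under 0.05 in purple with their symbol. SDC2 (1.50) and ITGB4 (-1.16) stand farthest from 0 among the related genes, and with the deposited values and all 6 arrays the other basement membrane components hold no purple point.

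Markers of cell types were read on the same arrays. Of 6 epithelial markers 4 fell and 0 rose, and their mean level ran from 9.34 to 9.93 in GFP and from 7.43 to 7.46 in TwistER, with none of them within the dimmest 25% of genes. Of 9 fibroblast markers 3 rose and 1 fell, with mean levels of 4.63 to 4.77 and 4.82 to 4.92. COL3A1 (2.13), PDGFRA (1.01) and COL1A1 (0.54) rose, and LUM fell (-1.63, limma adjusted p = 0.000889). Of all genes tested 4.72% rose and 4.11% fell. Of 6 endothelial markers 2 rose, KDR and PECAM1, and 0 fell, with mean levels of 4.15 to 4.21 and 4.60 to 4.65. Of 4 smooth muscle and 4 measured leukocyte markers 0 rose and 0 fell in limma, and 0 had an unadjusted p under 0.05. Without GFP replicate 1, all 6 epithelial markers fell and 1 leukocyte marker rose, PTPRC (0.48, limma adjusted p = 0.0407), while the counts of the other marker lists were the same. The fibroblast marker DCN, at 2.37 in both groups, was at percentile 2.19 of all genes, and the endothelial marker TEK at 7.28. The part of these markers in the laminin results was not tested. All arrays came from cultures of H358. In such bulk RNA, fewer cells that express a marker and less of its RNA per cell cannot be told apart.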

How the data were processed

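RNA from H358 cultures was biotin-labelled and read on 6 Affymetrix arrays, per the labels' protocols. The authors deposited log2 values per probe set made with RMA, per the submitters' processing notes. For its version and settings, the sources used here give nothing. The method equalises the distributions of the arrays, so a shift of the whole transcriptome would not show. Groups came from the sample labels, and the labels give no batch. The labels name biological replicates without saying how these were separated, and a p-value therefore reflects the spread among these 6 samples. No 2 arrays held identical values.

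The table held 33297 probe sets, of which 19460 had 1 gene symbol in the platform annotation, 1754 had several and 12083 had none. The first kind was kept, with the brightest probe set of a gene by its mean over all 6 arrays. Entrez identifiers of 19429 matched RefSeq (GRCh38.p14), and 0 symbols changed. Related family members can share probes.

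The log2 differences were fitted without covariates in limma 3.58.1 (R 4.3.3; lmFit, then eBayes; 2-sided) with Benjamini-Hochberg adjustment over 18417 genes at 0.05. "Rose" and "fell" are used of genes past this threshold. The test was checked on simulated data. Pairs of chains were compared by an exact permutation test over arrays, and the planned pair with LAMA3 was not run. A planned comparison of chain proteins was not made. Named were all chains, up to 4 called genes of each list with the largest difference, and the 3 genes nearest to the chain with the largest difference; the other related genes were named after their values were seen. Members and lists were chosen with earlier results of these data known. Alternatives were median centring, cyclic loess, a filter on the dimmest 25% of genes, the mean of probe sets, a trended robust variance, a block for the replicate number, leaving out each array, and thresholds of 0.01 and 0.1. Plots were made with Python 3.11.15 and matplotlib 3.10.9. The number of arrays limits the precision.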

Additional observations from a re-analysis of the deposited data

How the results depend on the processing

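Over 93 alternative values of the chain differences no sign changed, and 86 kept their side of the threshold. Not all of these values could change sign. Each chain has 1 probe set, so the mean of probe sets repeats the same chain values. The trended robust variance, the replicate block and the filter leave each difference as it was. A change of sign was possible only under median centring, cyclic loess and leaving out an array. The differences without each array in turn ran from -1.86 to -1.35 for LAMB3, from 0.51 to 0.76 for LAMB1 and from -0.41 to -0.21 for LAMC1. The number of chains that rose ran from 0 to 1, and the number that fell from 0 to 2. At an adjusted p under 0.01, 0 chains rose and 0 fell. The filter on the dimmest 25% of genes removed LAMA1, LAMA2 and LAMA4, which then had no value. Without each array in turn, 1 to 2 laminin receptors rose and 0 to 2 fell, 1 to 2 hemidesmosome partners fell, 0 to 2 other basement membrane components fell and 0 to 1 processing proteases fell. With the trended robust variance 1 hemidesmosome partner fell. With cyclic loess, median centring or the filter on the dimmest 25% of genes, 1 other basement membrane component fell.

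The replicate numbers of the labels were tried as a block. Deviations of same-numbered arrays correlated at 0.14, 0.02 and 0.16. Those of GFP replicate 2 correlated best with TwistER replicate 3 (0.04), and those of every other array with its own number. These values are small and do not settle whether the numbers mark a pairing. With the replicate block LAMB3 differed by -1.52 (limma adjusted p = 0.00706) and LAMB1 by 0.66 (limma adjusted p = 0.0324), 1 chain rose and 1 fell, 1 hemidesmosome partner fell, 1 other basement membrane component fell, and 1592 genes passed in place of 1627.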
